A study of Homo sapiens with 12 samples.

Results

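The names hsa-miR-1246, hsa-miR-1290, hsa-miR-1260a, hsa-miR-1260b, hsa-miR-4454, hsa-miR-4286 and hsa-miR-5100 (written below without the species prefix hsa) are entries of miRNA catalogues. They were listed for a likeness to pieces of longer structural RNAs. They were taken as a list by name, 7 of the 2656 names in the deposited tables, and all 7 had a row in every one of the 12 libraries. The list takes the first 2 as like U2 small nuclear RNA (snRNA) and the others as like transfer RNA (tRNA). Likeness to cytoplasmic tRNAs was not measured here, so tRNA-like is below only a label of the list. The libraries come from AC16, an established human line derived from ventricular cardiomyocytes, and from exosomes (small extracellular vesicles) isolated from it, and the study set out to find which exosomal miRNAs hypertrophy of cardiomyocytes regulates. There were 4 groups of 3 libraries: exosomes named Ang, exosomes named Con, whole cells named Ang and whole cells named Con. File headers of the Ang groups read AngII, which the sources used here do not spell out, and dose and time are not given in them. No source says whether replicates were separate cultures, so the p-values reflect variation among these libraries alone, which may be technical.

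U2 snRNA is a core component of the spliceosome, where it pairs with the branch point of an intron. tRNAs carry amino acids to the ribosome, and every mature tRNA ends in CCA, 3 bases that an enzyme adds after transcription. Fragments of both RNA classes are found in cells and in extracellular vesicles, and small RNA sequencing counts a fragment under a miRNA name when the counting program accepts the match. Which RNA the molecules came from cannot be read from a table of counts per name.

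The mature sequences are shown first because the likeness to other RNAs lies in them. RefSeq (GRCh38.p14) held 6 of the 7; miR-4286 is given by name only. Each is written 5′ to 3′, with capitals for the seed, bases 2 to 8, which pairs with targets in a true miRNA.
miR-1246: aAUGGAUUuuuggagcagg
miR-1290: uGGAUUUUuggaucaggga
miR-1260a: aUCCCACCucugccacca
miR-1260b: aUCCCACCacugccaccau
miR-4454: gGAUCCGAgucacggcacca
miR-5100: uUCAGAUCccagcggugccucu

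miR-1246 and miR-1290 share an unbroken stretch of 12 bases, uggauuuuugga, placed so that their seeds differ. A piece of the U2 gene RNU2-1 (GRCh38 chromosome 17, 43233787 to 43233977, minus strand; transcript positions 88 to 119 from GENCODE release 29) is shown to display the match, with the bases equal to miR-1246 in capitals and T in place of U.
RNU2-1: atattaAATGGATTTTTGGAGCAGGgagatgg
All 19 bases of miR-1246 stand at positions 94 to 112 of RNU2-1. For miR-1290, 18 of 19 bases match positions 96 to 114, and the difference is T13G, counted from 1 at the 5′ end of miR-1290. Among 206694 GENCODE transcripts the miR-1246 sequence occurred in 20, namely 19 snRNA transcripts and its own hairpin, whereas miR-1290 had its own hairpin and no other exact match. Of the transcripts that held miR-1246, 7 had a gene name starting with RNU2, and the names of the rest were not examined. With at most 1 mismatch, 31 of 1900 snRNA transcripts held miR-1246 and 23 held miR-1290.

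miR-1260a and miR-1260b have the same seed, which no other name in the RefSeq table has. Over the 18 bases of miR-1260a they differ at 1 position, T9A, and miR-1260b has 1 base more at its 3′ end. miR-1260a and miR-4454 end in CCA, as 45 of 2370 mature names (1.90%) do, and in miR-1260b the same letters are followed by a final u. Sequences of cytoplasmic tRNAs were not used here, so likeness to them was not measured. The 22 mitochondrial tRNAs in GENCODE differed from each of the 6 sequences by at least 7 bases over ungapped stretches of the gene transcripts. A CCA added after transcription is not part of such sequences, so likeness to a mature tRNA end was not measured.

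The hairpin genes lie apart from each other on GRCh38. MIR1246 lies on chromosome 2 (176600980 to 176601052, minus strand), MIR4454 on chromosome 4 (163093574 to 163093628, minus strand) and MIR5100 on chromosome 10 (42997563 to 42997681, plus strand), all outside other annotated genes. MIR1290 lies on chromosome 1 (18897071 to 18897148, minus strand) in an intron of ALDH4A1, which encodes a mitochondrial enzyme of proline breakdown. MIR1260A lies on chromosome 14 (77266218 to 77266290, plus strand), opposite an untranslated part of an exon of the neuroglobin gene NGB. MIR1260B lies on chromosome 11 (96341438 to 96341526, plus strand), opposite coding sequence of MAML2, a coactivator of Notch signalling. None of these 6 hairpins overlapped any of the 465 tRNA genes in the RefSeq annotation.

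Each value counts unique molecular identifiers (UMIs), 1 for each captured molecule, and levels are given as CPM, the UMI count of a name scaled to the total of its library. Totals ran from 697049 to 1029883 UMIs in exosome libraries and from 413513 to 528844 in cell libraries, and 3 counts came to between 2.91 and 7.25 CPM, a floor that covers counting error only. The 7 names together held 0.396% ± 0.0099 of UMIs in exosomes Ang and 0.402% ± 0.016 in exosomes Con, 0.542% ± 0.022 in cells Ang and 0.445% ± 0.012 in cells Con (SD, n = 3 each). Most of this was miR-1260a alone, with 0.3214%, 0.3355%, 0.4206% and 0.3456% of the summed UMIs in the same order of groups. Exosomes Con replicate 1 stood apart, where the chi-square statistic over its degrees of freedom (names with at least 10 UMIs in the pair) was 6.57 and 10.6 against the other replicates and 1.91 between those. Cells Ang replicate 2 also stood apart from its group, with 4 and 4.37 against the other replicates and 1.99 between those. Markers of other cell types were highest in cells Ang replicate 2 and, among exosome libraries, in exosomes Con replicate 3. The 7 blood cell miRNAs summed to between 346 and 643 CPM in exosomes Ang, 552 and 1280 in exosomes Con, 2040 and 6890 in cells Ang and 2130 and 2370 in cells Con. The 2 endothelial miRNAs summed to between 84.6 and 233, 130 and 473, 517 and 4660, and 575 and 674 CPM in the same order of groups, and the 1 liver miRNA to between 4.30 and 18.8, 8.74 and 156, 7.80 and 181, and 0 and 9.69 CPM. The 7 muscle miRNAs summed to between 57.4 and 71.4 CPM in exosomes Ang, 73.8 and 90.6 in exosomes Con, 285 and 326 in cells Ang and 344 and 376 in cells Con. None of the listed markers was at 0 in a whole group, but some were sparse. Summed over the 3 libraries of a group, miR-1-3p had 6 to 18 UMIs and miR-133a-3p 8 to 26.

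**Figure D1:**
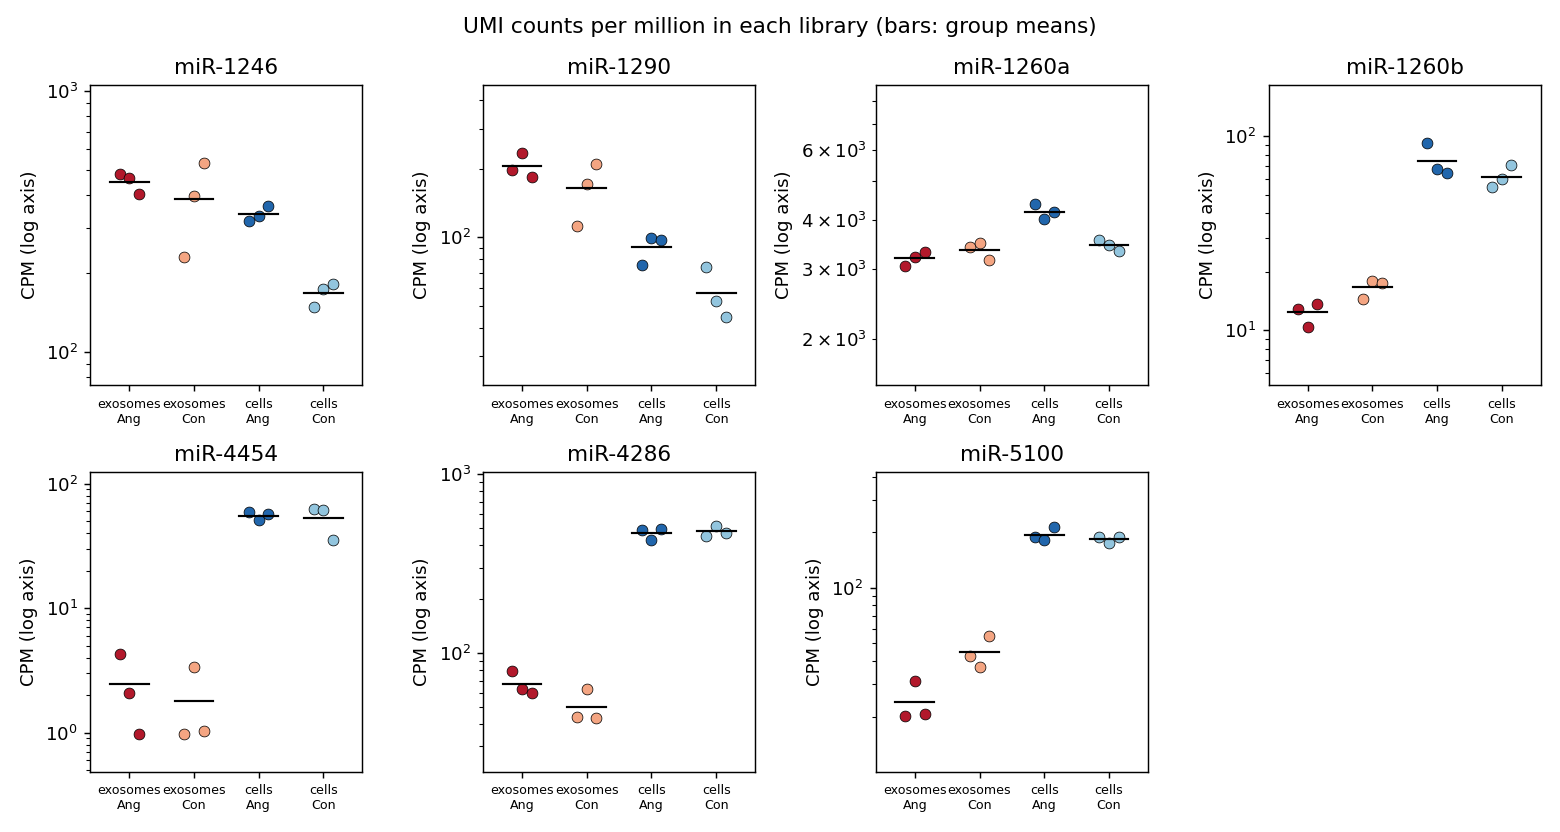
CPM of each name in each of the 12 libraries (log axes that differ between panels; dots are libraries, bars are means of 3). miR-1246 and miR-1290 stand higher in exosomes than in cells, miR-1260a between 3049 and 4391 CPM in all libraries, and miR-1260b, miR-4454, miR-4286 and miR-5100 lower in exosomes.

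Exosomes were compared with cells first. Both U2-like names were higher in exosomes, and of the tRNA-like names miR-4454, miR-4286 and miR-5100 were lower in Ang and in Con. miR-1260b was lower in Ang, and its Con difference did not pass. For miR-1260a, the most abundant of the 7 in every group, the direction depended on how libraries were scaled. The compartments were extracted with different kits, so compartment and kit cannot be told apart. The edgeR fit used TMM scaling, which sets aside names with extreme ratios. Scaling by library totals instead moved the median log2 difference of all tested names by -1.89 in Ang and by -1.52 in Con, so both scales are given for each name. By adjusted p, 83.3% of all tested names passed in Ang (38.2% higher, 45.1% lower in exosomes) and 83.3% in Con (39.2% higher, 44.2% lower), and the groups did not overlap in CPM for 91.0% and 89.1%. All 7 members passed in exosomes Ang against cells Ang, 3 higher and 4 lower, and 6 passed in Con, 3 higher and 3 lower. A call alone therefore does not set a member apart from other names, and miR-4454 passed the count filter only through its cell libraries.

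miR-1290 had the largest excess in exosomes of the 7. It had 198, 234 and 185 CPM in the exosomes Ang libraries, against 75.4, 99.2 and 97.5 CPM in the cells Ang libraries. It had 113, 171 and 210 CPM in exosomes Con, against 73.8, 52.3 and 44.8 CPM in cells Con. Every exosome library lay above every cell library. The log2 difference was 3.07 (SE 0.16, adjusted p = 9.84e-12) in Ang and 3.02 (SE 0.26, adjusted p = 1.09e-06) in Con, and 1.17 and 1.50 by library totals, where both still passed.

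miR-1246 gave 481, 463 and 403 CPM in exosomes Ang, against 318, 331 and 363 CPM in cells Ang. In Con it gave 231, 395 and 528 CPM in exosomes, against 149, 174 and 182 CPM in cells. Again the exosome and cell libraries did not overlap in either pair. Its log2 difference was 2.30 (SE 0.12, adjusted p = 6.34e-12) in Ang and 2.71 (SE 0.27, adjusted p = 3.36e-06) in Con, and by library totals 0.40 (adjusted p = 0.00406) and 1.18 (adjusted p = 0.00205). The low library of exosomes Con was replicate 1, and without it the Con difference was 2.98.

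miR-1260a stood at 3049, 3225 and 3315 CPM in exosomes Ang, against 4391, 4014 and 4183 CPM in cells Ang. In Con it stood at 3413, 3498 and 3164 CPM in exosomes, against 3562, 3457 and 3323 CPM in cells. By CPM it was thus lower in every exosomes Ang library than in any cells Ang library, and the Con groups overlapped. The TMM scale gave the opposite order, log2 1.50 (SE 0.078, adjusted p = 9.42e-12) in Ang and 1.48 (SE 0.064, adjusted p = 3.36e-09) in Con. By library totals the log2 difference was -0.41 (adjusted p = 0.000101) in Ang and -0.05 (adjusted p = 0.513) in Con. Its rank among all names ran from 50 to 56 in exosome libraries and from 36 to 54 in cell libraries.

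The near-identical miR-1260b did not keep the level of miR-1260a. It had 9, 10 and 14 UMIs (12.9, 10.4 and 13.7 CPM) in exosomes Ang, against 45, 28 and 33 UMIs (91.7, 67.7 and 64.4 CPM) in cells Ang. In Con there were 15, 16 and 17 UMIs (14.6, 18.0 and 17.5 CPM) in exosomes, against 29, 31 and 30 UMIs (54.8, 60.1 and 70.8 CPM) in cells. All exosome libraries lay below all cell libraries in CPM. Its log2 difference was -0.71 (SE 0.27, adjusted p = 0.0216) in Ang and -0.37 (SE 0.22, adjusted p = 0.168) in Con, and -2.60 and -1.88 by library totals, where both passed. The Ang call under TMM ended with DESeq2 (adjusted p = 0.0947) and without cells Ang replicate 1, exosomes Ang replicate 1 or exosomes Ang replicate 2 (adjusted p = 0.0650 to 0.155).

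miR-4454 stood at or under the 3-count floor in exosomes. The exosomes Ang libraries held 3, 2 and 1 UMIs, against 29, 21 and 29 UMIs in cells Ang. The exosomes Con libraries held 1, 3 and 1 UMIs, against 33, 32 and 15 UMIs in cells Con. All 6 exosome libraries lay below all 6 cell libraries, although the exosome libraries had more UMIs in all. From summed counts, 6 against 79 UMIs in Ang gave a CPM 24.9-fold lower in exosomes (95% interval 10.9 to 69.8), and 5 against 80 in Con one 31.5-fold lower (12.9 to 99.6). These exact intervals cover counting error only. With TMM scaling the fitted log2 difference was -2.70 (SE 0.42, adjusted p = 1.60e-05) in Ang and -3.38 (SE 0.48, adjusted p = 6.88e-05) in Con. The name passed the count filter of these fits only through its cell libraries, where it is higher. Its calls therefore add nothing to the counts above.

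miR-4286 counted 55, 60 and 61 UMIs (78.9, 62.7 and 59.7 CPM) in exosomes Ang, against 239, 177 and 252 UMIs (487, 428 and 491 CPM) in cells Ang. In Con it counted 45, 56 and 42 UMIs (43.7, 63.0 and 43.2 CPM) in exosomes, against 239, 266 and 198 UMIs (452, 516 and 467 CPM) in cells. The gap between compartments was several times the spread within them. The log2 difference was -0.93 (SE 0.15, adjusted p = 2.91e-05) in Ang and -1.75 (SE 0.15, adjusted p = 1.17e-06) in Con, and -2.83 and -3.27 by library totals.

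miR-5100 gave 14, 30 and 21 UMIs (20.1, 31.3 and 20.5 CPM) in exosomes Ang, against 92, 75 and 109 UMIs (188, 181 and 213 CPM) in cells Ang. In Con there were 44, 33 and 53 UMIs (42.7, 37.1 and 54.6 CPM) in exosomes, against 99, 90 and 80 UMIs (187, 174 and 189 CPM) in cells. The cell groups were alike and the exosome groups apart. Log2 differences were -1.11 (SE 0.20, adjusted p = 6.18e-05) in Ang and -0.51 (SE 0.16, adjusted p = 0.0106) in Con, and -3.01 and -2.03 by library totals. The Con call ended without cells Con replicate 1 (adjusted p = 0.0518).

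**Figure D2:**
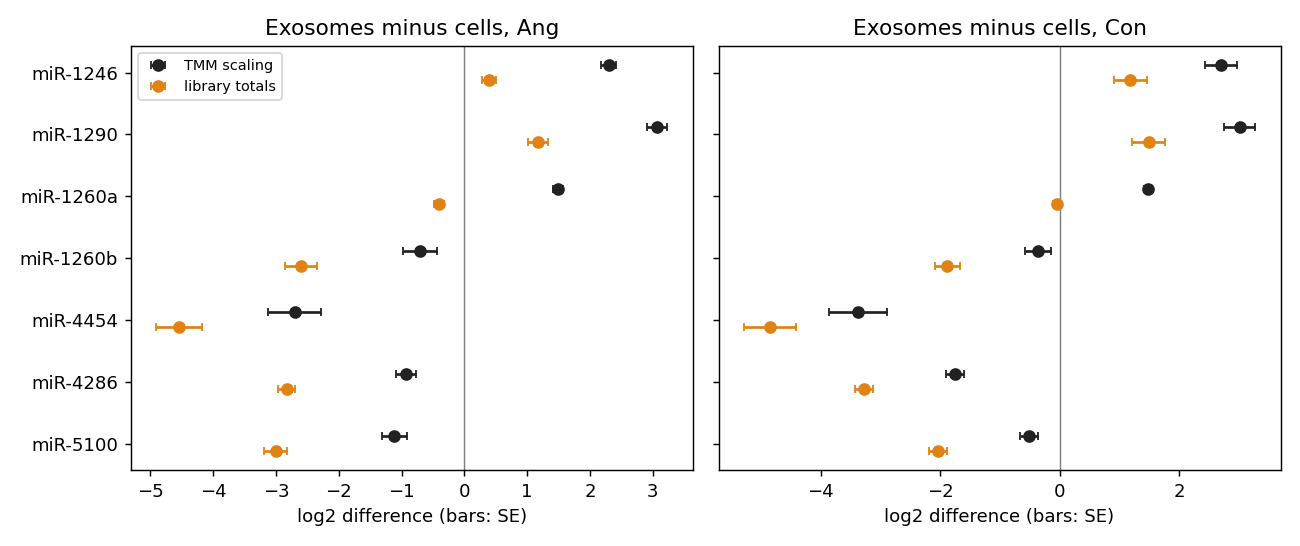
Log2 difference of exosomes over cells for each name, in Ang (left) and Con (right), from edgeR with TMM scaling (black) and with library totals (orange); bars are standard errors and n is 3 libraries per group. Changing the scale shifts all names alike and leaves their order, with miR-1290 on top and miR-4454 at the bottom; miR-1260a changes sign, from 1.50 to -0.41 in Ang.

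Ratios of a pair of names within a library do not depend on scaling. miR-1260a over miR-1260b was 236, 309 and 242 in exosomes Ang, 234, 194 and 181 in exosomes Con, 47.9, 59.3 and 65.0 in cells Ang and 65.0, 57.6 and 47.0 in cells Con. All 6 exosome libraries lay above all 6 cell libraries, and exosomes Ang lay just above exosomes Con. The group means were 262 ± 40.4, 203 ± 27.8, 57.4 ± 8.72 and 56.5 ± 9.05 in that order (SD, n = 3 each). For a pair of sequences that differ by 1 base and 1 terminal base, exosomes held a smaller share of miR-1260b. How the counting program split reads between the pair is not given in the sources used here.

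The ratio of miR-1246 over miR-1290 varied less. It was 2.43, 1.98 and 2.18 in exosomes Ang, 2.05, 2.31 and 2.52 in exosomes Con, 4.22, 3.34 and 3.72 in cells Ang and 2.03, 3.33 and 4.05 in cells Con. Both Ang and Con exosomes stayed within a narrow range, and cells Con replicate 1 lay inside it while the other cell libraries lay above. That library had 39 UMIs of miR-1290, against 27 and 19 in the other cells Con libraries.

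**Figure D3:**
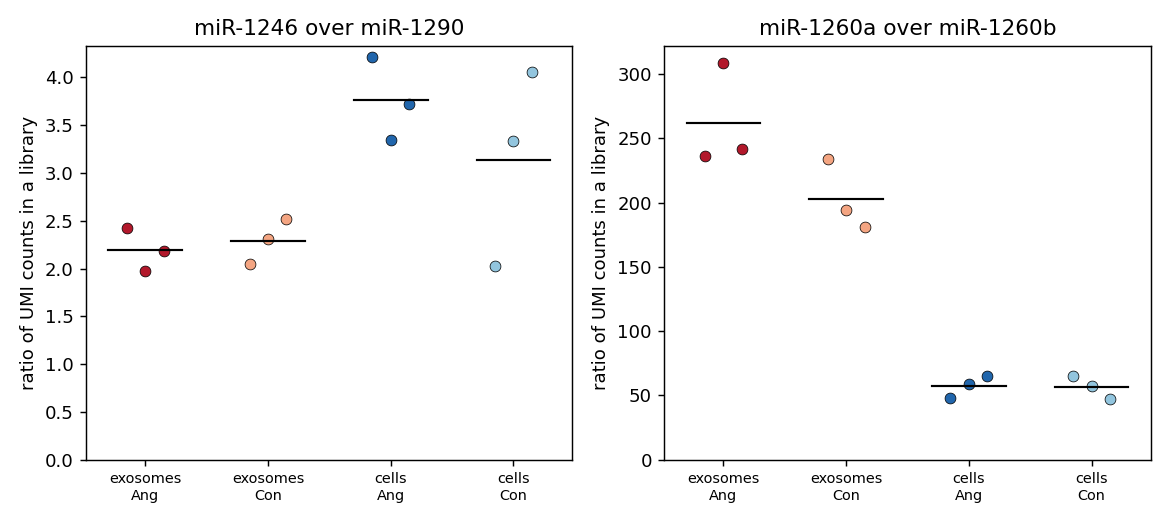
Ratio of UMI counts of miR-1246 over miR-1290 (left) and of miR-1260a over miR-1260b (right) in each library; dots are libraries, bars are means of 3 and axes start at 0. The right panel separates exosomes (181 to 309) from cells (47.0 to 65.0); the left panel overlaps between compartments.

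Ang was then compared with Con in cells. miR-1246 was higher in Ang by 1.99-fold: the 318, 331 and 363 CPM of cells Ang given above stand against 149, 174 and 182 CPM of cells Con, with no overlap. Its log2 change was 0.99 (SE 0.12, adjusted p = 0.00026), and it passed in all 15 alternatives run, with log2 changes from 0.91 to 1.04 and adjusted p up to 0.019. miR-1260a rose by a smaller step, log2 0.27 (SE 0.063, adjusted p = 0.0164), also with no overlap. Its call ended without Con replicate 2 or 3 or Ang replicate 1 (adjusted p = 0.0831 to 0.147), with no count filter (adjusted p = 0.0521) and in a fit to all 12 libraries (adjusted p = 0.117). The 2 higher and 0 lower members called among 7 stand beside 2.76% of all tested names called higher and 3.80% called lower. With DESeq2, 2 members were higher and 0 lower, beside 34 and 57 of 1630 tested names. With limma-voom it was 2 and 0, beside 43 and 64. At an unadjusted p under 0.05 there were 3 higher and 0 lower members, and all names were not counted at that threshold. In these bulk libraries a change in the copies per cell and one in the share of cells that hold the RNA cannot be told apart.

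The U2-like partner miR-1290 had log2 0.63 (SE 0.21, adjusted p = 0.0937) in cells and did not pass, although the lowest cells Ang library, 75.4 CPM, lay above the highest cells Con library, 73.8 CPM. It passed with a replicate block (adjusted p = 0.0469) and without cells Con replicate 1 (log2 0.87, adjusted p = 0.0460), the library with the highest miR-1290 of that group. For 3 of the 7 names, miR-1246, miR-1290 and miR-1260a, the cell groups did not overlap in CPM, with Ang higher each time, as for 12.5% of tested names, while 9.94% were lower. The Ang replicate 2 library, in which blood and endothelial markers were high, lay between the other Ang libraries for miR-1246 and was the lowest for miR-1260a. Without it miR-1246 (adjusted p = 7.77e-05) and miR-1260a (log2 0.29, adjusted p = 0.0213) both passed.

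The other names did not pass in cells. miR-1260b had log2 0.27 (SE 0.20, adjusted p = 0.522), close to that of miR-1260a but with 28 to 45 UMIs per library behind it. miR-5100 had log2 0.07 (SE 0.13, adjusted p = 0.841), miR-4286 -0.04 (SE 0.099, adjusted p = 0.897) and miR-4454 0.02 (SE 0.23, adjusted p = 0.976). The signs of these last values turned when single libraries were left out. SEs of changes so near 0 may not be reliable. In cells Con, counting alone would give a spread of 6.57% of the mean for miR-4286, with 177 to 266 UMIs per cell library. For miR-4454, with 15 to 33, it would give 20.3%.

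In exosomes Ang against Con was tested for 6 of the 7 names, as miR-4454 had too few counts. miR-5100 fell: 20.1, 31.3 and 20.5 CPM in exosomes Ang, against 42.7, 37.1 and 54.6 CPM in exosomes Con, with no overlap. The log2 change was -0.72 (SE 0.23, adjusted p = 0.0349). miR-4286 rose: 78.9, 62.7 and 59.7 CPM in exosomes Ang, against 43.7, 63.0 and 43.2 CPM in exosomes Con, where the groups overlapped because Con replicate 2 lay within the Ang range. Its log2 change was 0.58 (SE 0.20, adjusted p = 0.0464). The counts of 1 higher and 1 lower member stand beside 16.9% and 17.1% of all tested names, so they are near the background. Groups that did not overlap in CPM made up 16.1% (higher) and 36.3% (lower) of tested names, and among members these were miR-5100 and miR-1260b, both lower.

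Both calls ended in some alternatives. That of miR-4286 ended with library totals (log2 0.42, adjusted p = 0.126), DESeq2 (adjusted p = 0.124), no count filter (adjusted p = 0.0833), a replicate block (adjusted p = 0.0585) and without any library except exosomes Con replicate 2 (adjusted p = 0.0538 to 0.146). That of miR-5100 ended with DESeq2 (adjusted p = 0.210), a replicate block (adjusted p = 0.0679) and without Con replicate 3, Ang replicate 1 or Ang replicate 3 (adjusted p = 0.108 to 0.137). Exosomes Con replicate 3 is the library with the highest markers of other cell types in exosomes, and without it the log2 change of miR-5100 was -0.59.

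For the U2-like pair the exosome libraries of Con spread widely. The SD of miR-1246 in exosomes Con was 38.7% of its mean where counting alone would give 5.41%, against 9.06% and 5.05% in exosomes Ang. The log2 change was 0.40 (SE 0.22, adjusted p = 0.194) for miR-1246 and 0.50 (SE 0.19, adjusted p = 0.0664) for miR-1290. Without Con replicate 1 the values were 0.15 (adjusted p = 0.373) and 0.30 (adjusted p = 0.104), and without Con replicate 3, the highest, 0.67 (adjusted p = 0.0213) and 0.68 (adjusted p = 0.0166). That was the only alternative of 15 in which miR-1246 passed. Con replicate 3 also had the highest blood cell, endothelial and liver marker sums of the exosome libraries (1280, 473 and 156 CPM), and their part in these values was not tested. miR-1290 also passed with RLE size factors (adjusted p = 0.0495), DESeq2 (adjusted p = 0.0343) and in a fit to all 12 libraries (adjusted p = 0.0305).

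miR-1260a was measured most closely in exosomes. Its log2 change was 0.09 (SE 0.068, adjusted p = 0.345), and -0.072 (SE 0.050) with library totals, which moved the median of all tested names by -0.16, at 2125 to 3515 UMIs per library. miR-1260b had log2 -0.27 (SE 0.25, adjusted p = 0.569) from 9 to 17 UMIs per library. For miR-4454 the ratio of exosomes Ang over exosomes Con from 6 and 5 summed UMIs was 1.30 (95% interval 0.329 to 5.37), so a change was not detectable at this depth. With TMM scaling the median over tested members was 0.25 in exosomes and 0.27 in cells, beside -0.05 and 0.02 over all tested names. The cell median is the value of miR-1260b, next to that of the near-identical miR-1260a. In exosomes members were called in both directions, so the medians do not describe a shared change.

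**Figure D4:**
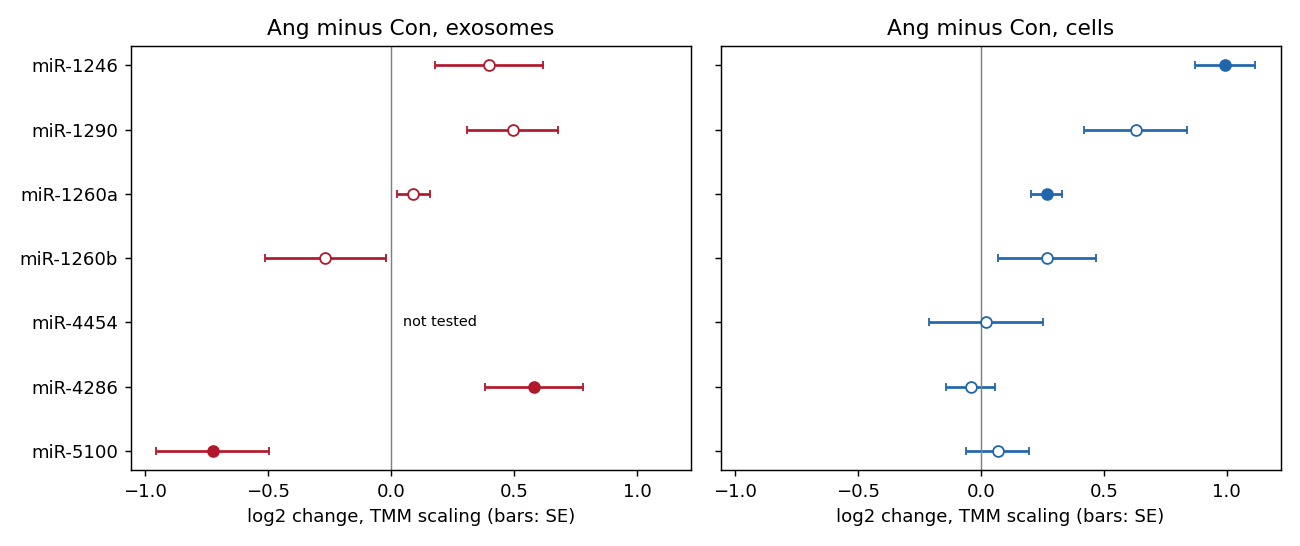
Log2 change of Ang over Con (TMM scaling, edgeR) in exosomes (left) and cells (right), with standard errors and n of 3 libraries per group; filled circles had an adjusted p under 0.05 and open circles did not. The U2-like names and miR-1260a lie right of 0 in both panels, although with library totals miR-1260a turns to -0.072 in exosomes; miR-4286 (0.58) and miR-5100 (-0.72) lie apart in exosomes and near 0 in cells.

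Whether the Ang change differed between compartments was tested as an interaction over all 12 libraries, exosomes minus cells. miR-4286 passed at log2 0.76 (SE 0.21, adjusted p = 0.0219), and the 1 higher and 0 lower members stand beside 9.97% of tested names called higher and 5.18% called lower. With DESeq2, 1 member was higher and 0 lower, beside 251 and 66 of 1835 tested names. With limma-voom it was 1 and 0, beside 184 and 86. At an unadjusted p under 0.05 there was 1 higher and 1 lower member, and all names were not counted at that threshold. The call ended with library totals (0.44, adjusted p = 0.177) and without cells Con replicate 2, exosomes Con replicate 1 or 3, or exosomes Ang replicate 1 (adjusted p = 0.0533 to 0.0622). miR-5100 had -0.65 (SE 0.24, adjusted p = 0.0858) and passed with library totals (-0.97, adjusted p = 0.0130) and without exosomes Ang replicate 2 (-0.92, adjusted p = 0.0325). For miR-1246, called in cells and not in exosomes, the difference was -0.46 (SE 0.29, adjusted p = 0.356), and without exosomes Con replicate 1 it was -0.77 (adjusted p = 0.00676). That of miR-1260a was -0.04 (SE 0.10, adjusted p = 0.902), or -0.36 with library totals (adjusted p = 0.0152). Scaling by library totals moved the median of all names by -0.32 in this contrast, and RLE size factors moved it by 0.11. miR-1290 (0.00), miR-1260b (-0.39, SE 0.34) and miR-4454 (0.63, SE 0.85) did not pass. No SE is given for miR-1290, since an SE derived from a change so near 0 is not reliable.

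**Figure D5:**
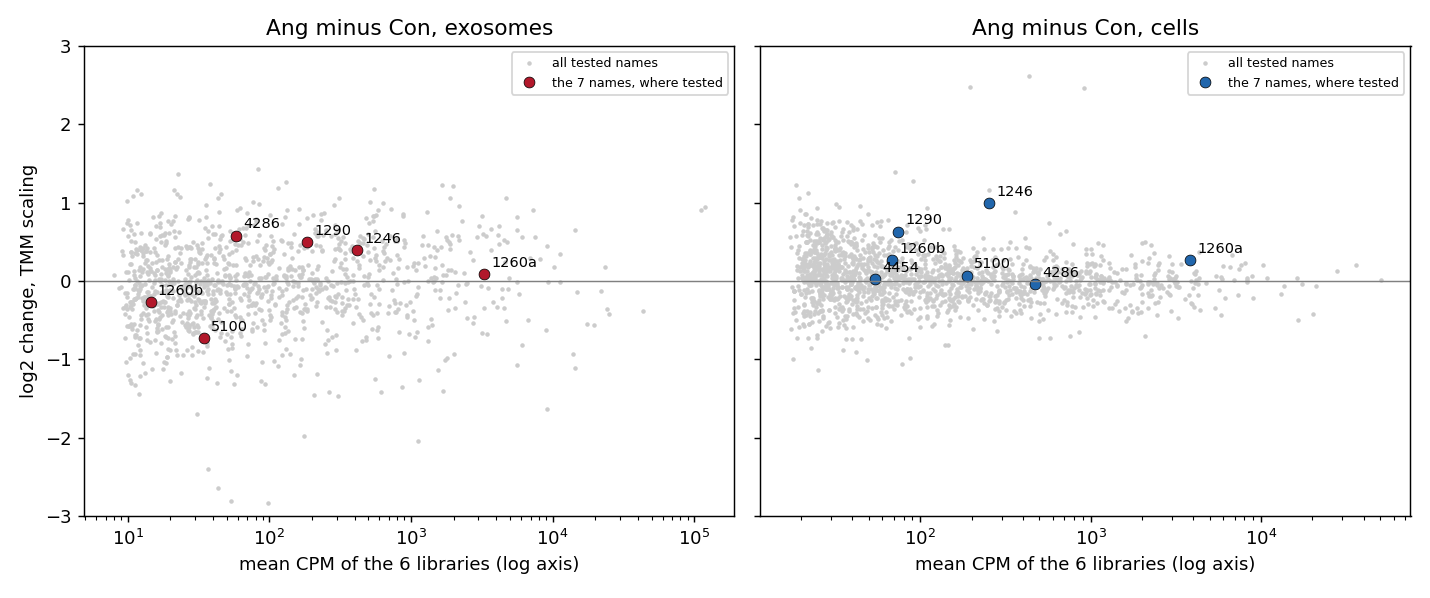
Log2 change of Ang over Con against mean CPM (log axis) for every tested name (grey) and the listed names (coloured, labelled by number), in exosomes (left, 1199 names) and cells (right, 1630 names); 1 name beyond the vertical range of -3 to 3 is not drawn. In cells miR-1246 stands at the upper edge of names of its abundance, whereas in exosomes the 6 tested names lie among the others.

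Names with the closest profile over the 12 libraries were found by the root mean square difference of centred log2(CPM + 1) values among 1813 other names with a mean of at least 10 CPM. The nearest to miR-1260a was miR-6892-5p (0.127), to miR-1260b miR-6836-5p (0.153), to miR-4286 miR-422a (0.158) and to miR-5100 miR-4754 (0.201). For miR-1290 it was miR-3162-3p (0.312), for miR-4454 miR-1185-1-3p (0.347) and for miR-1246 miR-3184-3p (0.358). The second nearest, in the same order, were miR-6813-3p (0.130), miR-3184-5p (0.184), miR-3692-5p (0.193), miR-6819-5p (0.222), miR-369-5p (0.336), miR-3686 (0.396) and miR-6741-5p (0.362). In each case the value is on the log2 scale, and the libraries share the split between compartments.

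Other catalogue names, taken from general knowledge as like pieces of ribosomal, nucleolar, transfer or other RNAs, were listed as a frame. There were 23 such names, of which 19 had a row. Their edgeR calls below use TMM scaling, and they were not counted with library totals. In exosomes 2 of 11 tested rose and 7 fell in Ang, beside 16.9% and 17.1% of all tested names (list median -0.38, all names -0.05). DESeq2 gave 2 and 5, beside 177 and 116 of 1199 names, and limma-voom 2 and 6, beside 203 and 193. Of the 7, miR-1291 passed in edgeR at adjusted p = 0.0499, and miR-1268a and miR-1268b were counted separately. The largest changes were those of the ribosomal-like miR-3648, at 307 ± 15.3 CPM in Ang and 816 ± 25.7 in Con (log2 -1.25, SE 0.084, adjusted p = 3.12e-06), and miR-3960, at 3340 ± 189 and 7834 ± 384 CPM (log2 -1.06). In cells 1 of 14 rose and 0 fell, beside 2.76% and 3.80% of all tested names (list median -0.01, all names 0.02). The 1 that rose was miR-7704 (log2 0.33, SE 0.078, adjusted p = 0.019). DESeq2, limma-voom and an unadjusted p under 0.05 also gave 0 lower. Between compartments 6 of 15 were higher and 5 lower in exosomes Ang, beside 38.2% and 45.1% of all tested names (list median -0.18, all names -0.31), and 6 higher and 3 lower in exosomes Con, beside 39.2% and 44.2% (list median 0.32, all names -0.27). The largest excess was that of miR-4516, at 8439 ± 187 CPM in exosomes Ang and 679 ± 74.3 in cells Ang, and 7789 ± 149 in exosomes Con and 652 ± 64.6 in cells Con. miR-3651 followed at 239 ± 21.2 and 50.5 ± 4.34 CPM in Ang, and 343 ± 39.5 and 56.6 ± 18.4 in Con. For the Ang change in exosomes minus that in cells, 2 of 17 were higher and 3 lower, beside 9.97% and 5.18% of all tested names; of the 3 lower, miR-3648 had -0.97 and miR-3960 -0.92.

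The other 43 names ending in CCA were counted in the same way. In exosomes Ang against Con 3 of 18 tested rose and 4 fell (median -0.02), beside 16.9% and 17.1% of all tested names. In cells 0 of 22 passed by edgeR, beside 2.76% higher and 3.80% lower of all tested names, so the count is near the background. DESeq2 and limma-voom also gave 0. At an unadjusted p under 0.05, 3 were higher and 1 lower, and all names were not counted at that threshold. Between compartments 11 of 23 were higher and 8 lower in Ang, beside 38.2% and 45.1% of all tested names, and 12 of 24 higher and 8 lower in Con, beside 39.2% and 44.2%. These counts hold for TMM scaling only. The list was not counted with library totals, where 294 of all tested names were higher and 1176 lower in Ang. Of the 3 most abundant, miR-1913 stood at 2199 ± 50.3 CPM in exosomes Ang and 117 ± 34.8 in cells Ang, and miR-572 at 2016 ± 60.8 and 690 ± 36.2. The blood cell marker miR-223-3p went the other way, at 350 ± 34.3 CPM in exosomes Ang and 2359 ± 802 in cells Ang. miR-1260a and miR-4454, which both carry the ending, also lay far apart in exosomes.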

How the data were processed

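The deposited values are raw UMI counts per mature miRNA name in 12 libraries, as the file headers and the whole numbers show, with no normalization. Per the labels' protocols, RNA was extracted with miRNeasy Micro (cells) or exoRNeasy Maxi (exosomes) and prepared with a QIAseq miRNA kit. Per the submitters' processing notes, cutadapt and GRCh38 were used; aligner, mismatch limit, miRNA catalogue and counter: not given in the sources used here, so near-identical names and fragments of other RNAs could share or swap counts. The 76 names absent from exosome files were set to 0 there.

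Each pair of groups was fitted to its 6 libraries, and the interaction to all 12, with edgeR 4.0.16 in R 4.3.3 (filterByExpr, TMM, quasi-likelihood test, two-sided, Benjamini-Hochberg adjustment over all tested names, threshold 0.05). The SE is the log2 change divided by the root of F, which is not reliable for a change very near 0. Alternatives were RLE size factors, library totals, DESeq2 1.42.0, limma-voom (limma 3.58.1), no filter, a mean of at least 10 CPM, a replicate block, all 12 libraries, miR-1260a and miR-1260b summed, and each library left out. Same-numbered libraries correlated in their deviations from group means by between -0.145 and 0.255, so the numbers were not taken as pairs. Named items are all 7 members, their 2 nearest profiles, the up to 2 largest called changes of the frame list and the most abundant names ending in CCA. Members and lists were chosen with earlier results of these data known.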

Additional observations from a re-analysis of the deposited data

Results flagged for a closer look

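The Ang change of miR-4286 differed between compartments by the interaction test, with a log2 difference of 0.7615 (exosomes minus cells, SE 0.214, edgeR adjusted p = 0.0219). The Ang over Con change was 0.58 in exosomes and -0.04 in cells. Exosome libraries held 42 to 61 UMIs of this name, and cell libraries 177 to 266. Of 20 alternatives run, 15 kept the call, with log2 differences from 0.44 to 0.92. The part of exosomes Con replicate 1 was measured: without it the difference was 0.64 (adjusted p = 0.0533). No other member passed this test.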

How the results depend on the processing

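Between exosomes and cells, miR-1260a was the only member whose direction turned in the alternatives run, with library totals, to -0.0469 in Con and -0.405 in Ang. Where values moved below, the cause was not tested. In Ang against Con in exosomes, library totals left 0 members higher and turned miR-1260a to -0.0721; RLE size factors and a fit to all 12 libraries gave 2 higher, no count filter 0 higher, and DESeq2 0 lower. In cells, no count filter and the fit to all 12 libraries gave 1 member higher, and miR-4454 turned to -0.00403 with no filter, -0.0341 with all 12 libraries and -0.00689 under a minimum mean level of 10 CPM. For the interaction, library totals gave 0 members higher and 2 lower. There miR-1290, at -0.0025, turned to 0.112 with RLE, 0.107 with DESeq2, 0.0259 with limma-voom and 0.0264 with no filter, and miR-1260a turned to 0.0724 with RLE and 0.0728 with DESeq2.

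Scaling also moved the balance of calls over all names. In exosomes 203 were higher and 205 lower in Ang, against 151 and 319 with library totals, 177 and 116 with DESeq2 and 248 and 161 with all 12 libraries. RLE size factors gave 219 and 179 there, and no count filter 179 and 229. In cells 45 and 62 became 29 and 65 with all 12 and 32 and 64 with no count filter. Exosomes against cells gave 621 higher and 734 lower in Ang and 294 and 1176 with library totals, and 670 and 755 in Con and 346 and 1156 with library totals. The interaction gave 183 higher and 95 lower, against 93 and 222 with library totals, 250 and 77 with RLE and 251 and 66 with DESeq2.

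The replicate block, fitted although the numbers were not taken as pairs, gave 398 calls in exosomes and 132 in cells, against 408 and 107 without it. With the block 0 members were higher and 0 lower in exosomes, 3 were higher in cells, and the interaction of miR-1290 was 0.0169. Not every library correlated best with its own number: exosomes Ang replicate 2 did so with Con replicate 3 (0.307).

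Leaving out 1 library gave 0 to 2 members higher and 0 to 1 lower in exosomes, 1 to 3 higher in cells, and 0 to 1 higher and 0 to 1 lower for the interaction. In exosomes these stand beside 166 to 215 higher and 138 to 207 lower of 1240 to 1276 tested names. In cells they stand beside 16 to 40 higher of 1694 to 1732, and for the interaction beside 139 to 194 higher and 70 to 111 lower of 1843 to 2041. Over all names in cells it left 38 to 97 calls, the fewest, 38, when either replicate 2 or replicate 3 of Con was dropped, and 70 when replicate 1 of Ang was. In cells the change ran from -0.190 to 0.150 for miR-4454, from -0.0776 to 0.0119 for miR-4286 and from -0.00492 to 0.107 for miR-5100. The interaction ran from -0.254 to 0.201 for miR-1290 and from -0.0917 to 0.0346 for miR-1260a. With miR-1260a and miR-1260b summed, the sum passed where miR-1260a did. Depth limits miR-4454 and miR-1260b in exosomes, at no more than 17 UMIs per library.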
